A study of Mus musculus with 23 samples.

Results

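The 10 genes described here encode core subunits of mechanistic target of rapamycin complex 1 (mTORC1), its inhibitors and its downstream targets. The subunits and inhibitors are Mtor and Rptor, Deptor, Tsc1 and Tsc2, and Sesn1 and Sesn3. The targets are Eif4ebp1 and Eif4ebp2, and Rps6kb1. The 10 genes were taken by symbol from a list drawn up with earlier results of these data known, so how many of them changed is a description of the list. All 10 were found among the 12831 genes counted in quadriceps and the 16962 genes counted in epididymal fat. RNA-seq was done on 23 tissue libraries of male C57BL/6J mice that were 8 weeks old at surgery. No tumor mice had sham surgery. KPC mice received, in the pancreas, cells of a mouse pancreatic cancer line that had been transfected with a CRISPR/Cas9 plasmid lacking a targeting guide. KPC IL6KO mice received cells of the same line in which Il6 had been disrupted with CRISPR/Cas9. Each tumor line was 1 clone, so clone and genotype cannot be told apart, and the hosts' own Il6 gene was not edited in any group. All mice were killed when the KPC group met the wasting endpoint. Quadriceps was taken from 3 mice without tumor, 4 with KPC and 4 with KPC IL6KO tumors, and fat from 4 mice of each group. The labels number the fat samples apart from the muscle samples and do not say whether any mouse gave both tissues. The paper describes a different library preparation for each tissue and does not state whether the tissues were sequenced together. Each tissue was fitted apart.

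mTORC1 is a protein kinase complex on the lysosome that promotes protein synthesis and restrains autophagy when nutrients and growth factors are sufficient. Its catalytic subunit is mTOR and its scaffold is Raptor. The TSC1-TSC2 complex holds it off by inactivating the small GTPase Rheb, Sestrins hold it off through the GATOR complexes when amino acids are scarce, and DEPTOR binds mTOR itself. Downstream, active mTORC1 phosphorylates S6 kinase 1 (encoded by Rps6kb1) and releases the 4E-BP repressors (Eif4ebp1, Eif4ebp2) from the cap-binding protein eIF4E. In skeletal muscle the pathway is a main control of fiber size. These data measure transcripts only, and kinase activity depends on phosphorylation.

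Sesn1, which had the largest rise of the 10 genes, has 2 start-site windows in RefSeq on GRCm38.p6, each running from 250 bases before to 50 bases after the start site. They are shown because they differ in the letters of a Forkhead box O (FOXO) motif. The capitals in the upstream window mark GTAAACA, read from the minus strand, 22 bases after the start site.
Sesn1, chr10:41810324-41810623, plus strand: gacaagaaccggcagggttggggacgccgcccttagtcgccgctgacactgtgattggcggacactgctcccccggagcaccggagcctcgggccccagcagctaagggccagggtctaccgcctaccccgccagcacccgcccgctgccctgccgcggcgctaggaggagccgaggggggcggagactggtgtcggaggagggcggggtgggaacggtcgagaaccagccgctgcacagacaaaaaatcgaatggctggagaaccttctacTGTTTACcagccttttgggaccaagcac
Sesn1, chr10:41887189-41887488, plus strand: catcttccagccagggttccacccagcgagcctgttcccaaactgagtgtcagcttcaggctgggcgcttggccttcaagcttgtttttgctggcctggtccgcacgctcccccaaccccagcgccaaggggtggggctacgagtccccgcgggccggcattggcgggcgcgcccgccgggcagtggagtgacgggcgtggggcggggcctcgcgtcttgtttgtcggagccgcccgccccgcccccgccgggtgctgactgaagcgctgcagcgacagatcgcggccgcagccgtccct
Windows were found for 8 of the 10 genes, 9 windows in all, and not for Eif4ebp1 and Deptor. In those 9 windows, both strands were searched for GTAAACA (FOXO), TGATGNAA (ATF4 response element), CACGTG (E-box) and TTCCNGGAA (STAT), none of which overlapped another, and the match in the upstream Sesn1 window was the only match. Of all 32851 windows of this length, 3.65% held the FOXO letters, 3.97% the ATF4 letters, 7.15% the E-box and 1.15% the STAT letters. Gene-level counts do not tell which start site was used.

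Total counts were 19259763 to 74907810 per library in quadriceps and 26306377 to 56308545 in fat, and 3 counts correspond to 0.0462 to 0.154 and 0.0474 to 0.123 CPM (counts scaled to a common library size). All 10 genes lay far above this floor in every library. Levels are given as CPM on library sizes scaled by the trimmed mean of M values. A gene was called when the edgeR quasi-likelihood test gave a false discovery rate (FDR) at or under 0.05 over all genes of the tissue and a fold change of at least 1.5. Summed CPM of 6 muscle fiber genes was 113116 to 131007 in KPC, 145635 to 181733 in no tumor and 166991 to 182593 in KPC IL6KO quadriceps. Summed CPM of the 3 neutrophil genes present, of 6 in the list, was 3.93 to 20.6 in KPC, 0.0512 to 0.294 in no tumor and 1.14 to 2.54 in KPC IL6KO quadriceps. Only 1, 2 and 0 of the 3 neutrophil genes exceeded 3 counts in no tumor libraries 1, 2 and 3, so that range is at the floor. The part of these muscle fiber and neutrophil shifts in the results was not tested, and in bulk tissue fewer cells of a type and less RNA per cell cannot be told apart. In the fat pads, 12 epididymis genes summed to 855 to 96872 CPM and 6 adipocyte genes to 1493 to 23439 CPM, so the pads held transcripts of the adjoining epididymis as well as of fat.

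Il6 itself was edited in the tumor cells and not in the tissues sequenced, so its level does not check the labels. It was absent from the deposited quadriceps counts, so these data do not give its level there. By qPCR the paper reports higher Il6 in quadriceps of KPC mice, short of its own threshold for significance. In fat it had 0, 0, 1 and 4 counts in the no tumor pads, 62 to 185 counts in the 4 KPC pads, and 190, 1, 9 and 156 counts in KPC IL6KO pads 5 to 8.

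In quadriceps of KPC mice, 7 of the 10 genes passed the test against no tumor mice. Sesn1, Eif4ebp1, Tsc1, Mtor and Rps6kb1 rose, and Deptor and Sesn3 fell. Across all 12831 genes, 26.7% were called up and 29% called down, so most of the muscle transcriptome moved. Ordered from the largest rise, Sesn1 ranked 43 and Eif4ebp1 57 among all genes. Values of the 2 groups did not overlap for any of the 10 genes, as for 65.3% of all genes. The median log2 fold change was 0.75 for the 10 genes and -0.03 for all genes.

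**Figure D1:**
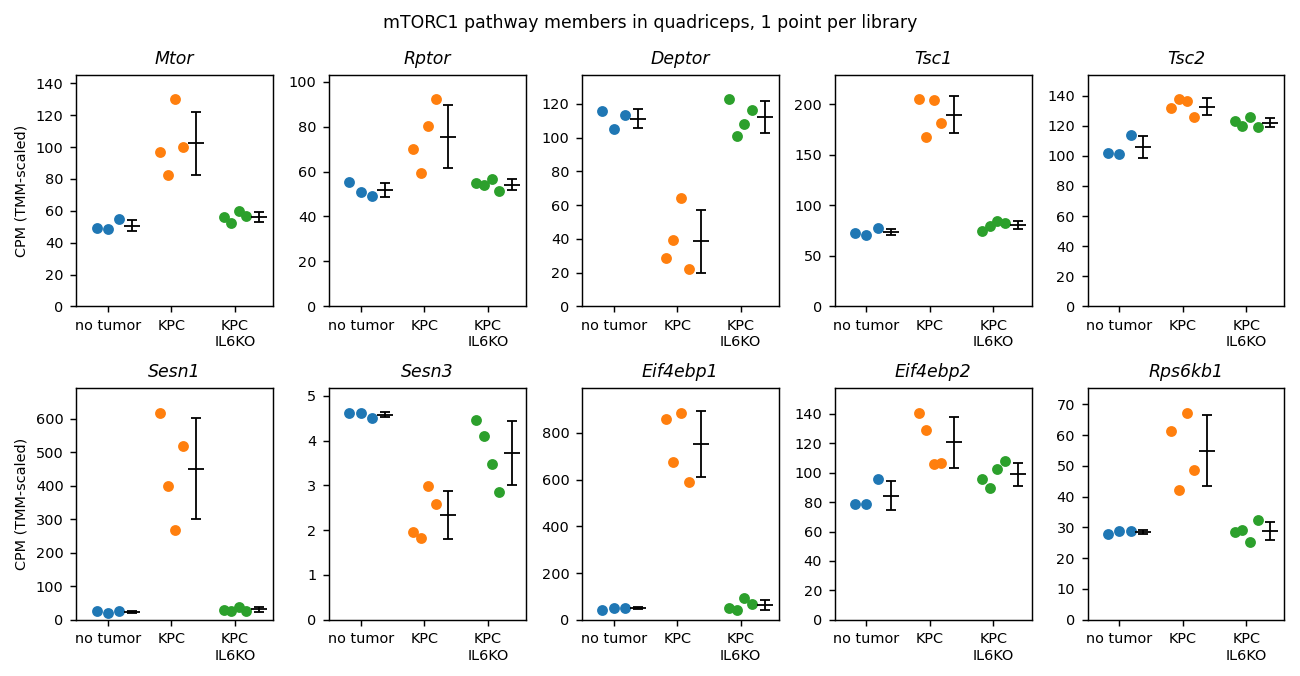
CPM of the 10 genes in quadriceps (each vertical axis linear from 0, 1 point per library), grouped as no tumor (n = 3), KPC (n = 4) or KPC IL6KO (n = 4); the bar at the right of each group is the mean and SD. Sesn1 is at least 268 and Eif4ebp1 at least 592 CPM in every KPC library, and Deptor lies lowest in KPC. Sesn3 in KPC lies below no tumor but overlaps KPC IL6KO.

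Sesn1, encoded at chr10:41809935-41908424 on the plus strand of GRCm38, makes Sestrin 1, a stress-induced leucine-sensing partner of GATOR2. It stood at 24.8, 21.01 and 25.8 CPM in the 3 no tumor libraries, at 619, 399, 268 and 519 CPM in the 4 KPC libraries, and at 29.996, 26.1, 39.3 and 26.5 CPM in the 4 KPC IL6KO libraries. Even the lowest KPC library was far above every library of the other groups. The mean rose from 23.9 ± 2.54 (SD, n = 3) to 451 ± 152 CPM (n = 4), a log2 fold change of 4.24 ± 0.29 (SE), or 18.9-fold (FDR = 1.24e-06).

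Eif4ebp1 (chr8:27260329-27276674, plus strand) encodes 4E-BP1, the repressor that keeps eIF4E from the cap-binding complex. Its values were 43.0, 51.6 and 51.2 CPM without tumor, 859, 674, 887 and 592 CPM with KPC tumors, and 49.95, 42.2, 91.7 and 66.5 CPM with KPC IL6KO tumors. The KPC libraries again formed a group of their own, while the KPC IL6KO libraries spread over the no tumor range and somewhat above it. The mean rose from 48.6 ± 4.86 (SD) to 753 ± 143 CPM, a log2 fold change of 3.95 ± 0.28 (SE), or 15.5-fold (FDR = 1.37e-06).

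The other 4E-BP, Eif4ebp2 (chr10:61428491-61452661, minus strand), moved much less. It stood at 78.9, 78.8 and 95.6 CPM in no tumor, at 141, 129, 106 and 107 CPM in KPC and at 95.8, 89.5, 102 and 108 CPM in KPC IL6KO libraries. Its log2 fold change of 0.52 ± 0.13 (SE) had an FDR of 0.00425 but was 1.43-fold, under the fold threshold. Per kilobase of exon, Eif4ebp1 had 1.41 to 1.73 times the level of Eif4ebp2 in no tumor quadriceps, 13.8 to 21.9996 times in KPC and 1.24 to 2.36 times in KPC IL6KO.

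Among the inhibitors upstream of Rheb, the subunits of the TSC complex behaved unequally. Tsc1 (chr2:28641228-28691167, plus strand), which encodes the stabilizing subunit hamartin, was 72.5, 70.7 and 77.3 CPM in no tumor, 205, 168, 204 and 181 CPM in KPC and 74.8, 79.1, 84.7 and 82.8 CPM in KPC IL6KO libraries. Every KPC value was more than the highest value elsewhere, with a log2 fold change over no tumor of 1.37 ± 0.10 (SE), or 2.58-fold (FDR = 1.83e-06). Tsc2 (chr17:24595816-24632630, minus strand), which encodes tuberin, the subunit with GTPase-activating activity, ranged from 102 to 114 CPM in no tumor and from 126 to 138 CPM in KPC libraries. Its log2 fold change of 0.33 ± 0.09 (SE), 1.26-fold, had an FDR of 0.00564 and did not reach the fold threshold. Tsc2 shares 693 exon bases, 7.20% of its exon length, with Pkd1 on the opposite strand, and the strand setting of the read counting is not given in the sources used here.

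The Sestrin genes moved in opposite directions. Sesn3 (chr9:14275067-14333101, plus strand), a FOXO target in many cells and a partner of GATOR2 like Sestrin 1, was scarce in muscle. It had 4.61, 4.62 and 4.51 CPM in no tumor, 1.96, 1.83, 2.98 and 2.58 CPM in KPC, and 4.47, 4.10, 3.48 and 2.85 CPM in KPC IL6KO libraries. KPC libraries lay below all no tumor libraries, but the lowest KPC IL6KO library fell within the KPC range. Against no tumor, Sesn3 fell by 0.97 ± 0.21 (SE) on the log2 scale, 1.96-fold (FDR = 0.00155).

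Deptor (chr15:55112317-55259271, plus strand) encodes the inhibitor that binds mTOR directly and was the member with the largest fall. Its values were 115, 105 and 113 CPM in no tumor, 28.7, 39.2, 64.3 and 22.1 CPM in KPC, and 123, 101, 108 and 116 CPM in KPC IL6KO libraries. The KPC libraries lay below all others, with KPC 3 closest to them. The mean dropped from 111 ± 5.42 (SD) to 38.5 ± 18.5 CPM, which is 2.89-fold lower (log2 fold change -1.53 ± 0.28, SE, FDR = 0.000454).

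Both kinase genes rose. Mtor (chr4:148448611-148557683, plus strand) was 49.0, 48.2 and 54.9 CPM in no tumor, 96.7, 82.6, 129.9 and 100.3 CPM in KPC and 55.9, 52.2, 59.5 and 56.8 CPM in KPC IL6KO libraries. Its log2 fold change over no tumor was 1.01 ± 0.14 (SE), or 2.02-fold (FDR = 7.63e-05), and no KPC library overlapped another group. Rps6kb1 (chr11:86498871-86544805, minus strand) was 27.7, 28.8 and 28.8 CPM in no tumor, 61.4, 42.2, 67.3 and 48.5 CPM in KPC and 28.6, 29.2, 25.1 and 32.5 CPM in KPC IL6KO libraries. Its log2 fold change was 0.95 ± 0.16 (SE), or 1.93-fold (FDR = 0.000253), again with no overlap. Rptor (chr11:119602905-119899576, plus strand), the scaffold that brings substrates to mTOR, was 49.1 to 55.1 CPM in no tumor and 59.2 to 92.1 CPM in KPC libraries. Its log2 fold change of 0.55 ± 0.14 (SE), 1.46-fold, had an FDR of 0.00379 and missed the fold threshold narrowly. It passed under relative log expression scaling and in DESeq2 (log2 fold change 0.59 in both), without no tumor 1 (0.62) and without KPC 2 (0.65).

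Exons of 3 further members overlap genes on the opposite strand. The shared bases are 303 in Deptor (3.41% of its exon length, with Gm9920), 155 in Rps6kb1 (1.79%, with Rnft1) and 84 in Rptor (0.624%, with Rptoros).

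In quadriceps of KPC IL6KO mice, none of the 10 genes was called against no tumor in edgeR, and none was called by DESeq2 or the edgeR likelihood ratio test. The share called over all genes was 0%. At an unadjusted p under 0.05 there were 887 genes, of which Tsc2 was the only member, and DESeq2 called 96 genes and the likelihood ratio test 95. The FDR of the 10 genes ranged from 0.634 to 1.00, and their log2 fold changes from -0.30 to 0.37. The intervals bound what could have been missed: the 95% interval was -0.19 to 0.90 for Sesn1, -0.16 to 0.89 for Eif4ebp1, -0.09 to 0.35 for Tsc1, -0.16 to 0.45 for Mtor, -0.32 to 0.36 for Rps6kb1 and -0.59 to 0.61 for Deptor. For Sesn1 and Eif4ebp1 the upper bounds lay well under the KPC changes. Values of Sesn1, Tsc2 and Sesn3 did not overlap between these groups, against 15.5% of all genes, and Tsc2 was 0.21 higher on the log2 scale in KPC IL6KO (95% interval 0.02 to 0.40, FDR = 0.634).

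Between the tumor groups, which differ in the clone injected, the same 7 genes were called in the same directions. The paper also reports larger tumors in KPC than in KPC IL6KO mice, and the part of tumor size was not tested. The called share of all genes was 26.4% up and 27.3% down. Sesn1 was 14.8-fold higher in KPC than in KPC IL6KO quadriceps (log2 fold change 3.89 ± 0.25, SE, FDR = 8.63e-07) and Eif4ebp1 12.03-fold higher (3.59 ± 0.24, FDR = 1.07e-06). Tsc1 was higher by 1.24 ± 0.09, Rps6kb1 by 0.93 ± 0.14 and Mtor by 0.87 ± 0.13 on the log2 scale, all with an FDR of 0.000145 or less. Deptor was 2.90-fold lower (log2 fold change -1.54 ± 0.26, FDR = 0.000289). Sesn3 was 1.59-fold lower (-0.67 ± 0.20, FDR = 0.00928), and this call rested on single libraries: the log2 fold change was -0.57 both without KPC 2 (FDR = 0.0234) and without KPC IL6KO 1 (FDR = 0.0343), under the fold threshold. Of the 3 genes not called, Rptor differed by 0.48 (FDR = 0.00497), Eif4ebp2 by 0.29 (FDR = 0.0501) and Tsc2 by 0.12 (FDR = 0.194). Values of 7 of the 10 genes did not overlap between the tumor groups, against 62% of all genes. This comparison and the KPC comparison with no tumor share the KPC libraries, so they are not independent.

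**Figure D2:**
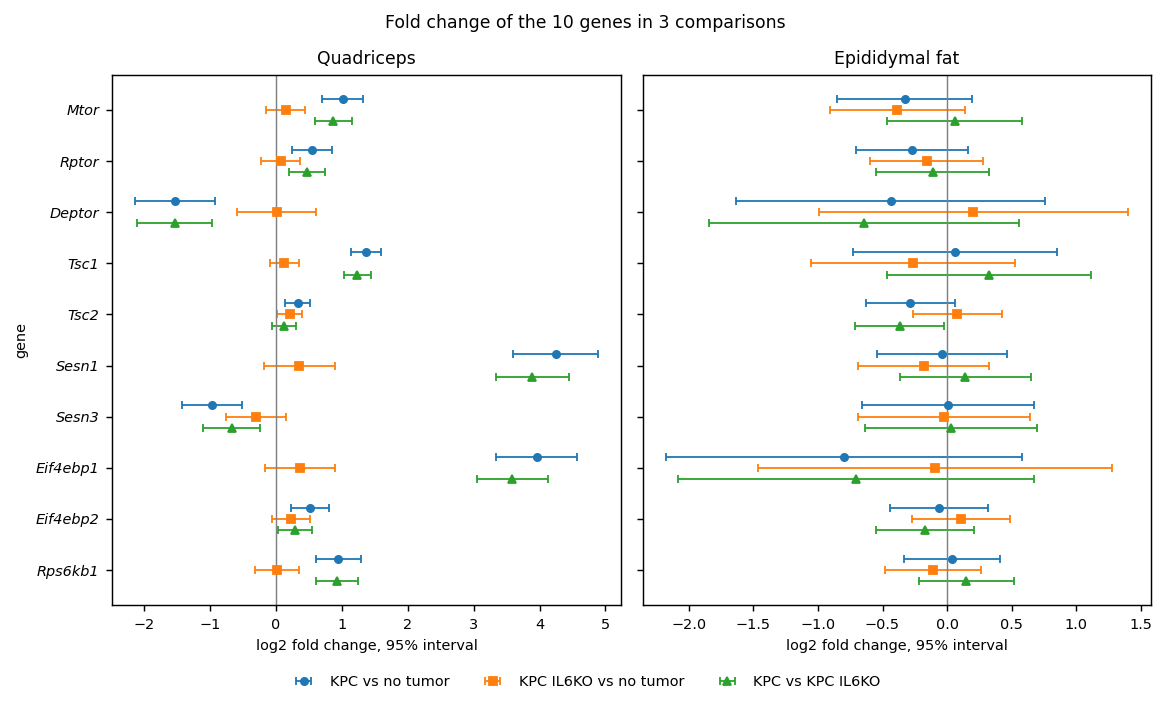
Log2 fold change with its 95% interval (horizontal axis, scaled separately for each tissue) for the 10 genes in KPC against no tumor (circles), KPC IL6KO against no tumor (squares) and KPC against KPC IL6KO (triangles), in quadriceps (left) and epididymal fat (right). In quadriceps the circles and triangles of Sesn1 and Eif4ebp1 lie between 3.59 and 4.24, while all squares lie between -0.30 and 0.37; in fat the intervals cross 0 except that of Tsc2 for KPC against KPC IL6KO.

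The order of the levels changed with the tumor. Per kilobase of exon, Eif4ebp1 was highest in no tumor quadriceps at 22.1 ± 2.21 CPM per kb (SD), followed by Eif4ebp2 (14.6 ± 1.67), Deptor (12.5 ± 0.61), Tsc2 (11.0001 ± 0.75), Tsc1 (6.21 ± 0.29), Sesn1 (6.00 ± 0.64), Mtor (5.02 ± 0.36), Rptor (3.83 ± 0.23), Rps6kb1 (3.29 ± 0.07) and Sesn3 (0.30 ± 0.004). Libraries overlapped for the neighbors Deptor and Tsc2, Tsc1 and Sesn1, and Sesn1 and Mtor, and for no other neighbors. In KPC quadriceps Eif4ebp1 (343 ± 65.1 CPM per kb) was followed by Sesn1 (113 ± 38.1) and then Eif4ebp2 (20.9 ± 2.96), while Deptor (4.34 ± 2.09) moved to the place before Sesn3 (0.153 ± 0.035). In KPC IL6KO quadriceps Eif4ebp1 (28.5 ± 9.98 CPM per kb), Eif4ebp2 (17.1 ± 1.38), Tsc2 (12.7 ± 0.32) and Deptor (12.6 ± 1.07) led, and Sesn3 was again last.

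Because 4E-BP1 acts by binding eIF4E, the transcripts of both were set side by side. Eif4e was not called in KPC quadriceps (61.4 ± 2.79 CPM in no tumor, 49.99 ± 4.01 CPM in KPC, log2 fold change -0.30, FDR = 0.0272). Per kilobase, the ratio of Eif4ebp1 to Eif4e was 1.94 to 2.40 in no tumor libraries, 35.4 to 46.1 in KPC and 1.90 to 4.91 in KPC IL6KO libraries. In fat the ratio was 0.651 to 7.38 without tumor, 0.791 to 2.41 with KPC and 1.24 to 3.83 with KPC IL6KO tumors, so the fat groups overlapped.

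**Figure D3:**
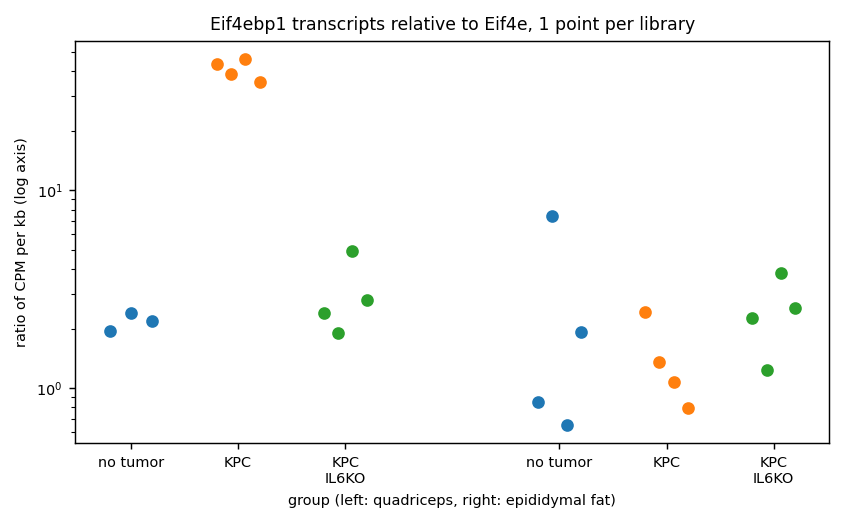
Ratio of Eif4ebp1 to Eif4e in CPM per kilobase of exon (vertical log axis, 1 point per library) by group, quadriceps on the left and epididymal fat on the right. The 4 KPC quadriceps libraries lie between 35.4 and 46.1, above all others, which lie between 0.651 and 7.38.

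The wider pathway was read from 7 lists with 72 genes, 62 of them outside the 10. Of those 62 genes, all measured in quadriceps, 27 rose and 9 fell in KPC against no tumor and 26 were not called, beside 26.7% and 29% of all genes. Their median log2 fold change was 0.20, against -0.03 for all genes.

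The lists for translation and other substrates moved mostly upward, beside 26.7% of all genes called up and 29% called down. Of the 14 translation genes, 9 rose and 0 fell by the edgeR test, with a median log2 fold change of 0.92. Eif4a1, the helicase of the cap-binding complex, rose from 73.7 ± 7.01 to 337 ± 138 CPM (log2 fold change 2.19, FDR = 3.02e-05), and Eif4b, its cofactor and an S6 kinase substrate, rose by 1.60 (FDR = 3.12e-05). The third 4E-BP gene, Eif4ebp3, rose by 1.01 (FDR = 6.22e-05), from 5.72 ± 0.36 to 11.5 ± 0.59 CPM. Rps6kb2, which encodes S6 kinase 2, was not called (0.39, FDR = 0.00568). Of the 6 other mTORC1 substrates, 5 rose. Lpin1, a phosphatidate phosphatase and lipid gene regulator, went from 358 ± 34.9 to 1403 ± 347 CPM (log2 fold change 1.97, FDR = 8.48e-06), and Ulk1, the kinase that starts autophagy, from 134 ± 1.09 to 435 ± 107 CPM (1.69, FDR = 8.44e-06).

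Of the 11 genes for mTOR complex subunits, members included, 3 rose and 3 fell, shares near the 26.7% and 29% of all genes. Akt1s1, which encodes the mTORC1 inhibitor PRAS40, rose by 0.95 (FDR = 5.69e-05), and Rictor, the scaffold of mTORC2, by 0.79 (FDR = 0.000211). Prr5l, an mTORC2 partner, had 1.46 ± 1.03 CPM in no tumor and 0.43 ± 0.31 CPM in KPC, a call (log2 fold change -1.79, FDR = 0.0149) that was lost without no tumor 2 (-1.02, FDR = 0.153). Telo2, which helps mTOR fold, fell by 0.64 (FDR = 0.00545), and this was under the fold threshold without no tumor 1 (-0.58), KPC 1 (-0.56) or KPC 4 (-0.53). Mlst8, the subunit common to both complexes, was not called (-0.51, FDR = 0.0483) but passed without KPC 3 (-0.73, FDR = 0.00269). In the 5-gene TSC list, Rheb, the GTPase that activates mTORC1, rose from 54.8 ± 3.69 to 137 ± 43.1 CPM (1.33, FDR = 0.000158), beside Tsc1, while Tbc1d7, the third TSC subunit, fell by 0.79 (FDR = 0.000344).

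Among 14 Sestrin and GATOR genes, 6 rose and 4 fell, beside 26.7% and 29% of all genes. Sesn2, the stress-induced Sestrin, rose by 0.92 (FDR = 0.00187) from 4.66 ± 1.05 to 8.86 ± 1.58 CPM. The GATOR2 genes Mios and Sec13 rose by 1.22 (FDR = 3.73e-06) and 1.03 (FDR = 3.83e-05), and the GATOR1 gene Depdc5 and the KICSTOR gene Kptn fell by 0.77 (FDR = 0.000557) and 0.90 (FDR = 0.00135). Of 13 Rag and lysosomal anchor genes, 4 rose and 2 fell, beside the same shares of all genes. Flcn, which activates RagC and RagD, rose by 1.09 (FDR = 0.00124) and Rragc by 1.05 (FDR = 0.000185), while Lamtor4 fell by 0.96 (FDR = 0.000123) and Rragd by 0.91 (FDR = 0.00167).

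Among the 9 stress and energy inhibitors, 3 rose and 1 fell, beside 26.7% and 29% of all genes. Ddit4, which encodes the stress- and glucocorticoid-induced inhibitor REDD1, went from 102 ± 66.7 to 666 ± 37.4 CPM (log2 fold change 2.70 ± 0.64, SE, FDR = 0.0028). No tumor 3 had 179 CPM against 63.6 and 64.1 CPM in the other no tumor libraries, and without it the log2 fold change was 3.38. In KPC IL6KO quadriceps Ddit4 stood at 27.7 ± 21.3 CPM, not called against no tumor (-1.88, FDR = 0.442). Its paralog Ddit4l fell by 2.03 (FDR = 0.000734), from 224 ± 7.95 to 54.9 ± 39.3 CPM, and its log2 fold change was -2.66 without KPC 2. Trib3, a stress-induced inhibitor of Akt, rose by 2.03 (FDR = 7.18e-05) from a low level of 0.856 ± 0.167 to 3.51 ± 0.55 CPM. In KPC IL6KO quadriceps 0 of the 62 genes were called against no tumor, and between the tumor groups 25 were higher and 8 lower in KPC, beside 26.4% and 27.3% of all genes.

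**Figure D4:**
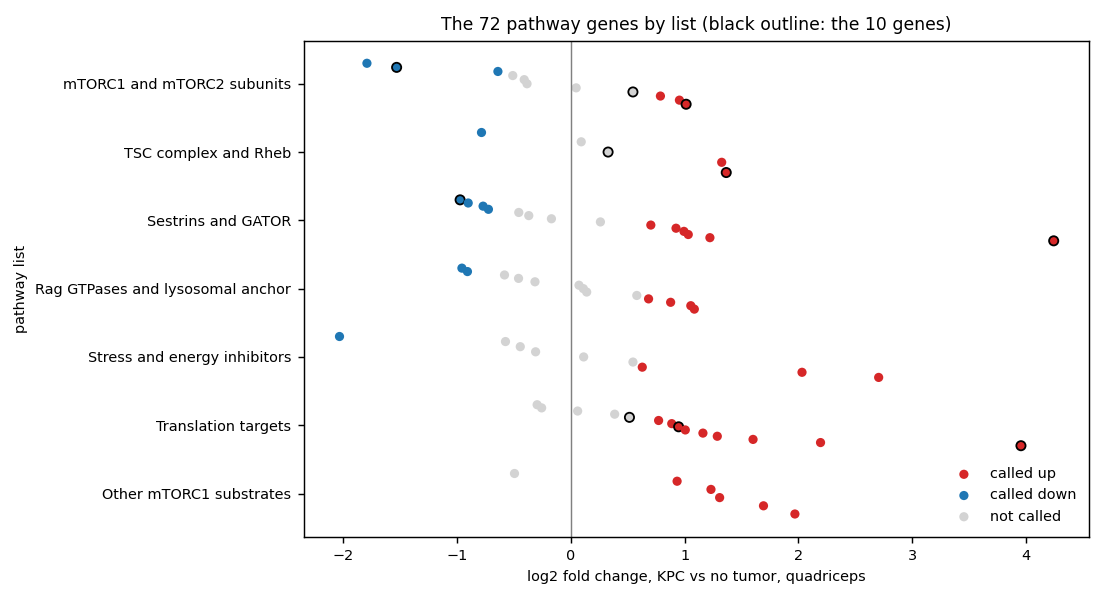
Log2 fold change of KPC against no tumor in quadriceps (horizontal axis) for the 72 pathway genes, 1 point per gene, in 7 lists; red points were called up, blue called down, grey not called, and a black outline marks the 10 genes. Sesn1 at 4.24 and Eif4ebp1 at 3.95 lie apart from the other 70 genes, which lie between -2.03 and 2.70.

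The genes whose pattern was most like that of the extreme members were found by the root mean square difference in centered log2 CPM over the 11 quadriceps libraries. For Sesn1 these were Zwint (0.315), D230025D16Rik (0.364) and Fam134b (0.407), with log2 fold changes in KPC of 3.98, 3.76 and 4.94. For Deptor they were Bcorl1 (0.187), Zfhx2 (0.223) and 1110019D14Rik (0.229), with log2 fold changes of -1.52, -1.51 and -1.72.

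In epididymal fat none of the 10 genes was called in any of the 3 comparisons by edgeR, DESeq2 or the likelihood ratio test. The share of all genes called was 0% in each, with 2061, 1584 and 1062 genes at an unadjusted p under 0.05 for KPC against no tumor, KPC IL6KO against no tumor and KPC against KPC IL6KO. DESeq2 called 585, 286 and 125 genes the likelihood ratio test 413, 209 and 66, and a newer form of the quasi-likelihood fit 16, 0 and 1. For KPC against no tumor, the log2 fold changes of the 10 genes ran from -0.80 to 0.06 (median -0.17, against -0.10 for all genes), with FDR from 0.507 to 0.996. Precision was much lower than in muscle: the biological coefficient of variation was 63.5% in fat and 22.7% in quadriceps, and the widest 95% interval, that of Eif4ebp1, reached from -2.18 to 0.58. Sesn1 was measured more closely, at a log2 fold change of -0.04 (95% interval -0.55 to 0.46). In fat Tsc2 was 116, 93.5, 103 and 72.7 CPM in no tumor pads 5 to 8, 72.3, 81.8, 73.5 and 87.9 CPM in KPC pads and 108, 112, 96.7 and 89.3 CPM in KPC IL6KO pads. For KPC against KPC IL6KO, Tsc2 had the lowest unadjusted p among the 10 genes, 0.0393 by edgeR (log2 fold change -0.37, FDR = 0.775). No member's values were free of overlap in KPC against no tumor (10.9% of all genes) or KPC IL6KO against no tumor (2.01%), and those of Tsc2 were in KPC against KPC IL6KO (4.33%).

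Eif4ebp1 and Deptor varied most between pads, 10.1-fold and 7.65-fold from lowest to highest. Eif4ebp1 was 31.9, 209, 20.7 and 65.6 CPM in no tumor pads 5 to 8, 75.4, 43.9, 35.7 and 32.6 CPM in KPC pads, and 74.8, 42.5, 110 and 79.0 CPM in KPC IL6KO pads. Deptor was 43.1, 204, 26.6 and 70.2 CPM in the same no tumor pads, 87.5, 55.0, 45.5 and 65.9 CPM in KPC pads, and 108, 51.0, 132 and 105 CPM in KPC IL6KO pads. The groups overlapped for both genes, and no tumor pad 6 was the highest for each. That pad also had the highest summed adipocyte genes, 23439 CPM, and no tumor pad 7, lowest for both genes, had the lowest, 1493 CPM. Summed CPM of 6 macrophage genes was 114 to 429 in no tumor, 504 to 1028 in KPC and 210 to 1671 in KPC IL6KO pads, and of 6 muscle fiber genes 8.55 to 266, 2.16 to 5.16 and 93.6 to 2390. The part of cell content in these values was not tested.

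The pads also split by Gpx5, an epididymis gene. It stood at 21347 to 54957 CPM in 7 pads (no tumor 5 and 7, all 4 KPC pads and KPC IL6KO 6). The remaining 5 pads had 4.69 to 85.8 CPM. Low Gpx5 did not mean that epididymis transcripts were absent. The 12 epididymis genes summed to 15278 and 21682 CPM in no tumor pads 6 and 8. In KPC IL6KO pads 5, 7 and 8 they summed to 855, 18449 and 11519 CPM. The pads high in Gpx5 had 42449 to 96872 CPM. All KPC pads were thus in the high class, while the other groups were mixed. Over the 7 high and 5 low pads, Tsc1 ranged from 90.3 to 148 and from 51.2 to 77.7 CPM, with no overlap. The share of all genes without overlap between these classes was not determined, so this separation may not be particular to Tsc1. Eif4ebp1 ranged from 20.7 to 75.4 in the high and from 65.6 to 209 CPM in the low pads, and Deptor from 26.6 to 87.5 and from 70.2 to 204 CPM. Within the high pads alone (4 KPC against 2 no tumor), Eif4ebp1 and Deptor were higher in KPC and Mtor, Rptor, Tsc1 and Tsc2 lower, without overlap, as were 33.8% of all genes. Eif4ebp1 was then 32.6 to 75.4 against 20.7 to 31.9 CPM (log2 fold change 0.93, FDR = 0.213) and Deptor 45.5 to 87.5 against 26.6 to 43.1 CPM (0.96, FDR = 0.127), so the sign of both turned from that over all pads, and no member was called.

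**Figure D5:**
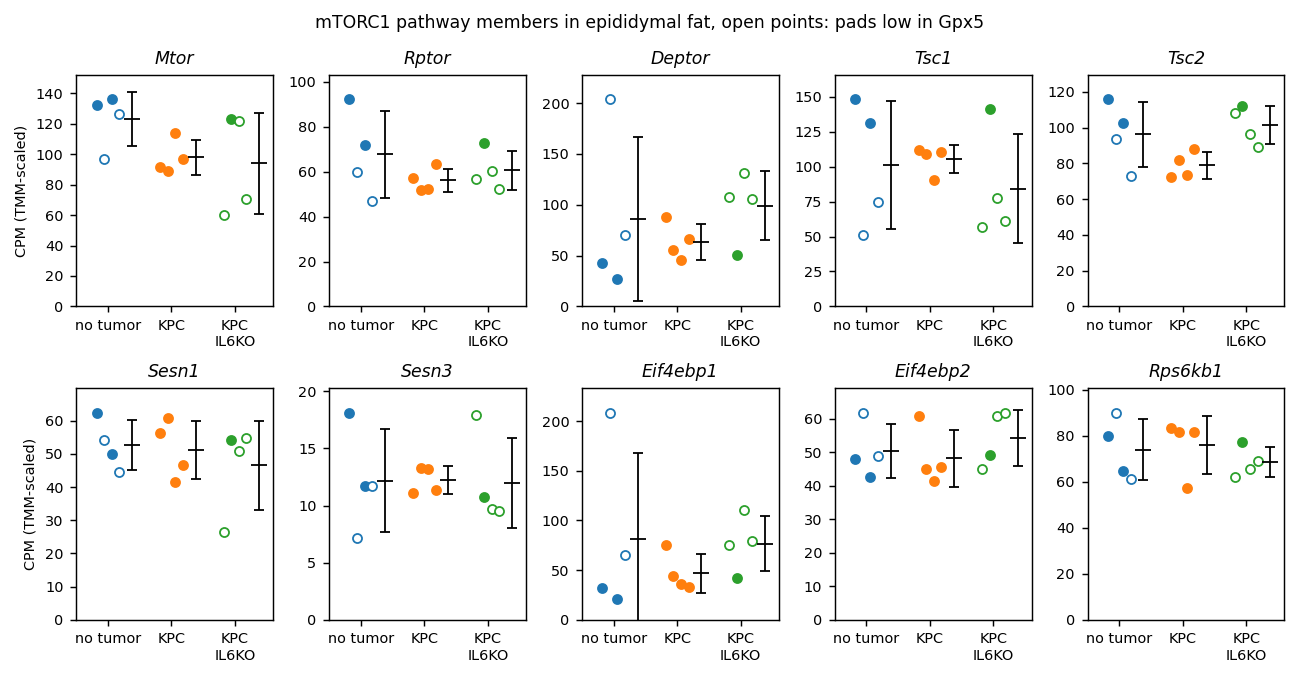
CPM of the 10 genes in epididymal fat (each vertical axis linear from 0, 1 point per library), 4 pads a group; open points are the 5 pads low in Gpx5, filled points the 7 high ones, and the bar is the mean and SD, cut off at 0 for Eif4ebp1. The groups overlap for every gene except Tsc2 between KPC and KPC IL6KO. Tsc1 is lower in all open than in all filled points, and the share of all genes that separate in this way was not determined.

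The KPC response itself was compared between the tissues with an interaction term over the 23 libraries and the 12599 genes in both tables. Tissue and library preparation cannot be told apart here, so the test compares within-tissue responses, and it treats the libraries as independent, which the labels do not establish. Of the 10 genes, 7 were called, against 36.9% of all genes. The response of Sesn1 was 4.17 ± 0.36 (SE) higher in quadriceps on the log2 scale (FDR = 3.41e-07), that of Eif4ebp1 4.64 ± 0.78 (FDR = 0.000162; 3.61 without fat no tumor 6), Mtor 1.22 ± 0.29 (FDR = 0.00307), Tsc1 1.19 ± 0.39 (FDR = 0.0211), Rps6kb1 0.80 ± 0.21 (FDR = 0.00621) and Rptor 0.69 ± 0.22 (FDR = 0.0192). The difference for Sesn3 was -1.10 ± 0.37 (FDR = 0.0231). Tsc2 (0.50, FDR = 0.0196), Eif4ebp2 (0.47, FDR = 0.0993) and Deptor (-1.20, FDR = 0.158) were not called, so a difference in the Deptor response between muscle and fat was not established over all pads. With only the Gpx5-high pads, the differences were -2.36 for Deptor, 0.85 for Tsc2, -0.66 for Sesn3 and 3.15 for Eif4ebp1. That subset was chosen after the data were seen. It held 4 KPC, 2 no tumor and 1 KPC IL6KO pads of fat, so no calls are given for it.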

How the data were processed

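RNA was measured by paired-end RNA-seq of 11 quadriceps and 12 epididymal fat libraries. Per the labels and the study's methods, the authors aligned reads to mm10 with STAR and deposited raw counts of uniquely mapped reads per gene from featureCounts 1.5.1, using edgeR 3.12.1 downstream. The kit named for the libraries differs between the sources, and the strand setting of counting is not given in the sources used here. A further no tumor quadriceps library, left out by the authors, was not analysed here.

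The deposited counts were tested with the edgeR 4.0.16 quasi-likelihood test (R 4.3.3). The 3 groups of a tissue were in 1 fit, with trimmed mean of M values scaling. The low-count filter filterByExpr removed 0 genes, so shares of all genes refer to the genes in the deposited counts. P-values were adjusted by Benjamini-Hochberg over all genes of the table. They weigh a group difference against the spread between samples within groups, estimated over all groups of the fit. The response of both tissues was compared by an interaction term. Standard errors are the log2 fold change over the square root of F. CPM per kb uses merged exon lengths of the GRCm38 annotation. Whether reads covered that full length was not checked, so levels of different genes compare only roughly. Of the table's symbols, 12392 (quadriceps) and 16332 (fat) matched the annotation. The members and lists were chosen with earlier results of these data known. Named genes are the 10 members, 9 pathway genes always shown, and up to 2 further called genes per list and direction by size in KPC quadriceps. The scripts were tested on simulated data. No 2 libraries of a group agreed within sampling noise. The division of fat pads at 1000 CPM of Gpx5 was made after the data were seen. Whether replicate numbers pair the samples was not established, and the main fit used no replicate block. Alternatives were relative log expression scaling, DESeq2 1.42.0, other edgeR tests, other filters, only the groups compared, a replicate block, epididymis terms and leaving out each library. The depths and floors stand in the report and cover counting error only.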

Additional observations from a re-analysis of the deposited data

Results flagged for a closer look

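The highest or lowest of 4 libraries stood apart by Dixon's criterion in 6 of 102 groups of members and named pathway genes, near the 1 in 20 that chance gives. Fat pad KPC 7 was low in Rps6kb1 (57.1 CPM, others 81.7 to 83.4) and in Tsc1 (90.3 CPM, others 109 to 112). Fat pad KPC IL6KO 5 was low in Sesn1 (26.4 CPM, others 51.0 to 54.7) and high in Sesn3 (17.9 CPM, others 9.54 to 10.7). In quadriceps, KPC 2 was high in Ddit4l (113 CPM, others 27.3 to 41.7) and KPC 4 in Eif4ebp3 (12.4 CPM, others 11.1 to 11.2).

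The response to KPC tumors differed between quadriceps and fat, by the interaction term, for 7 of the 10 members, against 36.9% of all genes. The fit treats the libraries as independent, which the labels do not establish. The quadriceps response minus the fat response on the log2 scale was 4.17 for Sesn1, 4.64 for Eif4ebp1 (3.61 without fat no tumor 6, below Sesn1), 1.22 for Mtor, 1.19 for Tsc1, 0.80 for Rps6kb1, 0.69 for Rptor and -1.10 for Sesn3.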

How the results depend on the processing

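In quadriceps, 7 or 8 members were called for KPC against no tumor and 6 or 7 for KPC against KPC IL6KO under every alternative, 0 for KPC IL6KO against no tumor and 0 in each fat comparison, and no called member changed sign. In the alternatives that left out no single library, 6608 to 7254 of all genes were called for KPC against no tumor. For KPC against KPC IL6KO these were 6387 to 6981, so the steady member counts go with a large called share throughout. With a replicate block the member counts were 7, 0 and 7 in quadriceps and 0 in fat, beside 7043, 0 and 6858 of all genes in quadriceps and 0 in fat. Same-numbered samples correlated from -0.155 to 0.265 in quadriceps and from -0.539 to 0.650 in fat. Differently numbered samples were not correlated, so these values do not decide whether the numbers pair the samples. The block turned Eif4ebp1 in fat for KPC IL6KO against no tumor to 0.29. Beyond the changes of call given with the results, Eif4ebp2 was called in quadriceps without no tumor 3 (0.61), and in the tissue comparison, where 6 to 8 members were called, Tsc2 was gained under relative log expression scaling (0.60) and without fat no tumor 8 (0.59), Deptor without fat no tumor 6 (-2.07) and Eif4ebp2 without fat KPC 5 (0.60), and Rptor was lost without fat no tumor 5 (0.54); the cause was not tested. The tissue comparison called 4396 to 4823 of all genes in the fits that kept every library. Calls over all genes for KPC against no tumor in fat went from 0 to 174 with only those groups, 259 with the epididymis covariate, 627 with the Gpx5 class as a term and 393 in the Gpx5-high pads, none of them members. Every reversal was of a member not called in either fit.

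With summed epididymis transcripts as a covariate, log2 fold changes in fat reversed for KPC IL6KO against no tumor in Deptor (-0.12), Tsc1 (0.17) and Sesn1 (0.033), and for KPC against KPC IL6KO in Mtor (-0.22), Tsc1 (-0.11) and Sesn1 (-0.13). With the Gpx5 class as a term, an alternative chosen after seeing the data, they reversed for KPC against no tumor in Deptor (0.67), Tsc1 (-0.40), Sesn3 (-0.12), Eif4ebp1 (0.50) and Eif4ebp2 (0.066), for KPC IL6KO against no tumor in Tsc1 (0.039) and Sesn3 (0.092), and for KPC against KPC IL6KO in Mtor (-0.22), Deptor (0.64), Tsc1 (-0.44), Sesn1 (-0.028), Sesn3 (-0.21), Eif4ebp1 (0.65) and Eif4ebp2 (0.015). In the Gpx5-high pads alone, also chosen after seeing the data, they reversed for KPC against no tumor in Deptor (0.96), Tsc1 (-0.32), Sesn3 (-0.18), Eif4ebp1 (0.93) and Eif4ebp2 (0.18).

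Leaving out 1 library at a time, the values that changed sign ranged as follows. In quadriceps KPC IL6KO against no tumor, Deptor ran from -0.037 to 0.056 and Rps6kb1 from -0.041 to 0.082. In fat KPC against no tumor, Deptor ran from -0.74 to 0.44, Eif4ebp1 from -1.13 to 0.25, Eif4ebp2 from -0.19 to 0.049, Rps6kb1 from -0.041 to 0.15, Sesn1 from -0.13 to 0.049, Sesn3 from -0.18 to 0.26 and Tsc1 from -0.16 to 0.30. In fat KPC IL6KO against no tumor, Deptor ran from -0.095 to 1.08, Eif4ebp1 from -0.41 to 0.96, Rptor from -0.30 to 0.025, Sesn1 from -0.27 to 0.012, Sesn3 from -0.29 to 0.23 and Tsc2 from -0.034 to 0.18. In fat KPC against KPC IL6KO, Mtor ran from -0.11 to 0.25, Sesn1 from -0.053 to 0.23 and Sesn3 from -0.064 to 0.29.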
